A study of Mus musculus with 15 samples.

Results

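Transcripts of 10 genes of the choroid plexus, Klotho (Kl) among them, were followed through whole-brain RNA-seq of 15 male C57BL/6J wildtype mice. The genes were Ttr, Kl, Folr1, Aqp1, Clic6, Otx2, Prlr, Slc4a5, Enpp2 and Sostdc1. They were taken by symbol from the 43629 genes listed, as genes known from the plexus epithelium, by a rule with no threshold on a measured value. The groups were 4 young mice fed ad libitum (young AL), 3 young mice on every-other-day feeding (young EOD), 4 old AL mice and 4 old EOD mice. The labels give 3 months as the age of the young mice and 24 months as that of the old mice. EOD feeding, in which food was given and withheld in turn for 24 h each, began at 2 months of age, so that it was short in the young mice and nearly lifelong in the old mice. Each library came from the whole brain of a single mouse, and no allele or agent was used in any group.

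The choroid plexus is a fold of vascular tissue covered by a tight epithelium that hangs in the brain ventricles and secretes the cerebrospinal fluid. Its epithelium makes transthyretin in very large amounts, carries transporters for folate, water, bicarbonate and hormones, and is the main site of Klotho in the brain. Klotho is a membrane protein whose ectodomain can be shed, acts as a co-receptor for the endocrine FGF23, and is known for the premature ageing of mice that lack it. A whole brain holds little of this epithelium, and how much of it stays with the brain at dissection can differ from mouse to mouse.

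Total counts per mouse ran from 5198748 to 13610729, with a median of 9886766. The third young AL library was the deepest and stood apart from the rest: its median correlation of log2 values with the other libraries was 0.957, whereas the other 14 libraries had medians of 0.980 to 0.987. It also had the fewest genes detected, 17280 against 19054 to 20880 in the other 14, and the part of library quality in its values was not tested. The main results that rest on this library are given with and without it. All 10 genes were counted in every mouse, with 9 counts (Folr1 in the third young AL mouse) as the lowest value of any of them, and all 10 were among the 15864 genes that passed the expression filter. Levels are given as CPM, the count relative to the library size after TMM scaling. With counts this low for Folr1, Slc4a5, Aqp1, Sostdc1 and Otx2, counting error is a visible part of the spread of these 5 genes.

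Promoter sequence from RefSeq (GRCm38.p6) was used for 5 of the 10 genes, Kl, Aqp1, Slc4a5, Otx2 and Prlr, in 10 windows that end at an annotated transcript start. These were searched on both strands for TAATCC, the site bound by the Otx family to which Otx2 belongs, and for GTAAACA, the core site of forkhead factors, because the genes varied together across mice (as the values per mouse show). Neither motif contains the other. Of the 250 bases before the start, 6.25% of all 32851 windows held TAATCC and 3.17% held GTAAACA. Among the 10 windows of these genes, 1 of the 4 Otx2 windows held TAATCC and 1 of the 3 Prlr windows held GTAAACA, each on the other strand, and the other 8 held neither. No window of Ttr, Folr1, Clic6, Enpp2 or Sostdc1 was among the 10, so these counts do not cover those genes. The window of Kl, and the Otx2 and Prlr windows with a match, read as follows from 5′ to 3′, with the matched letters in capitals. They lie at chr5:150952357-150952606 on the plus strand, chr14:48665110-48665359 on the minus strand and chr15:10223656-10223905 on the plus strand.
Kl: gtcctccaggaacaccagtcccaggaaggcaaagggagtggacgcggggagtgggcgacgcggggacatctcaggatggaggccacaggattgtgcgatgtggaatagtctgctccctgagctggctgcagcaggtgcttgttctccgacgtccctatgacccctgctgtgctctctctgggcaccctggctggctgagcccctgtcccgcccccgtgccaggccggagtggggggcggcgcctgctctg
Otx2: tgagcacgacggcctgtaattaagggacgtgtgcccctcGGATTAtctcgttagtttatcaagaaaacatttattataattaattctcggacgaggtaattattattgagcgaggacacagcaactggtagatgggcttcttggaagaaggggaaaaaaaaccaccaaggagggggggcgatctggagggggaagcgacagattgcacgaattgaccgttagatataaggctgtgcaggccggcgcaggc
Prlr: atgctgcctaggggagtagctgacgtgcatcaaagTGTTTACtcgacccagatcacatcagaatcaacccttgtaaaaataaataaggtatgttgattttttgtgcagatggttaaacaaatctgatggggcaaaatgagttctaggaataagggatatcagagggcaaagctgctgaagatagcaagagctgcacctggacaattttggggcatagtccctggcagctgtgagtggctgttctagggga
The Kl window was rich in G and C, at 66.8% against a median of 52.4% over all windows, and the shown windows of Otx2 and Prlr had 48.4% and 44.8%. The start that ends the shown Prlr window was not found among the GENCODE transcripts. A match is a run of letters and not evidence of binding, and binding was not measured here.

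Ttr encodes transthyretin, the carrier of thyroid hormone and of retinol-binding protein in cerebrospinal fluid. Ttr stood at 723, 697, 301 and 733 CPM in the 4 young AL mice and at 465, 884 and 413 CPM in the 3 young EOD mice. It stood at 953, 807, 924 and 548 CPM in the old AL mice and at 1147, 1077, 660.0 and 606 CPM in the old EOD mice. The highest mouse of all, in the old EOD group, had 3.81 times the level of the lowest, the third young AL mouse, and the 4 groups overlapped.

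Kl (chromosome 5, 150952607 to 150993809, plus strand) followed the same mice up and down. Its CPM was 33.1, 30.2, 9.22 and 29.8 in the young AL mice and 22.3, 35.6 and 19.6 in the young EOD mice. In the old AL mice it was 38.5, 29.5, 37.1 and 22.1, and in the old EOD mice 38.3, 33.3, 27.6 and 21.6. The third young AL mouse was the lowest and the other 14 mice lay within 19.6 and 38.5 CPM, with every group overlapping every other. Mean Kl was 25.6 ± 11 CPM (SD, n = 4) in young AL and 25.8 ± 8.57 CPM (n = 3) in young EOD mice. It was 31.8 ± 7.58 CPM (n = 4) in old AL and 30.2 ± 7.19 CPM (n = 4) in old EOD mice.

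**Figure D1:**
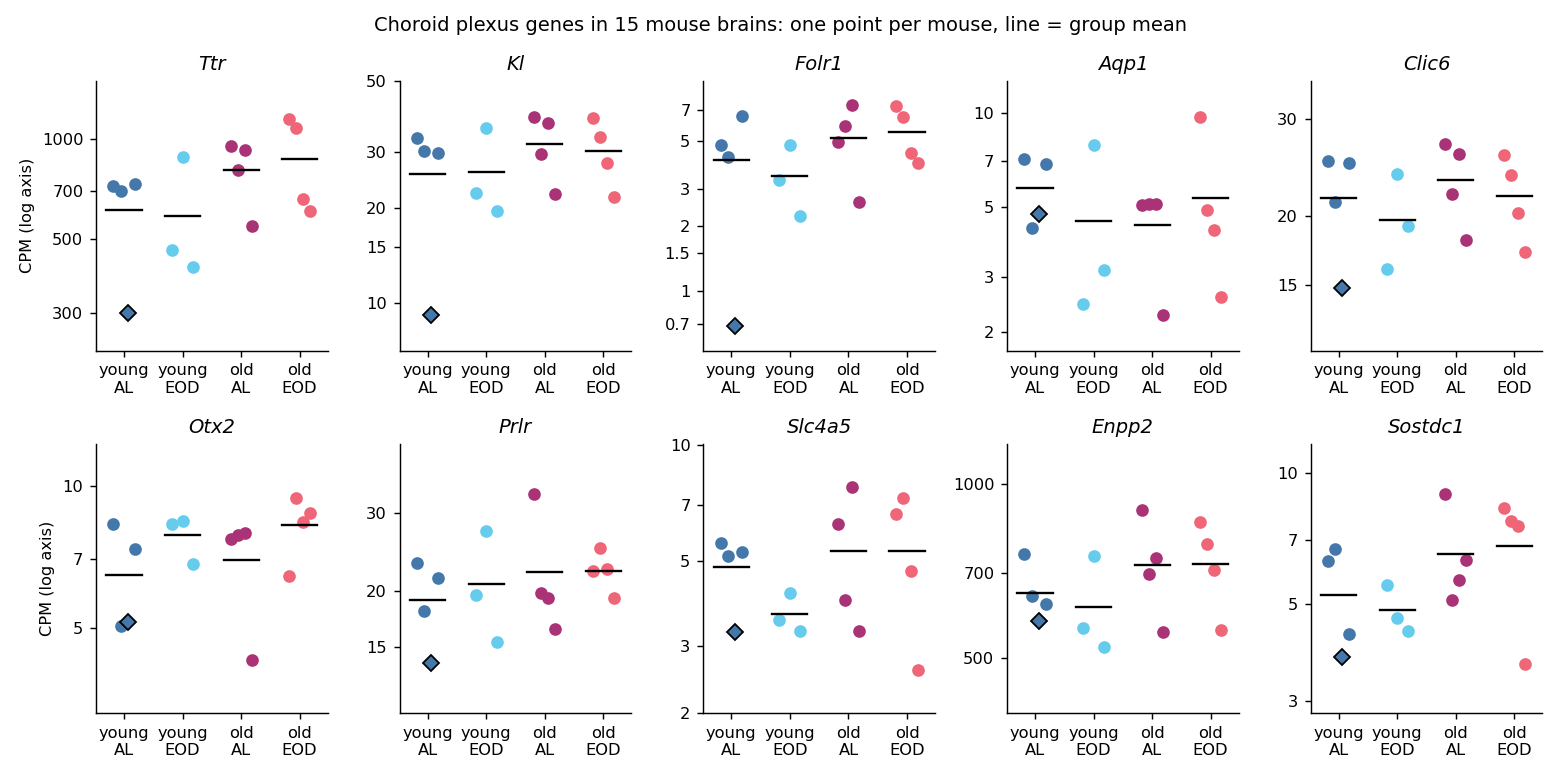
CPM on a log axis for each of the 10 genes, with 1 point per mouse, the mice set out by age and diet, and a line at each group mean. The black-edged diamond is the third young AL mouse, lowest of all 15 mice in 5 of the 10 genes, and the groups overlap in every panel.

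Folr1 encodes folate receptor alpha, which carries folate across the plexus epithelium. It had the widest spread, from 0.680 CPM (9 counts) in the third young AL mouse to 4.82, 4.21 and 6.61 CPM in the other young AL mice. Its young EOD mice had 3.29, 4.81 and 2.23 CPM, its old AL mice 4.97, 5.91, 7.38 and 2.61 CPM, and its old EOD mice 7.29, 6.49, 4.42 and 3.94 CPM. The third young AL mouse was thus far below every other mouse, and both old groups overlapped both young groups.

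The ion and water transport genes were Aqp1, Slc4a5 and Clic6. Aqp1, the apical water channel, had 7.11, 4.31, 4.76 and 6.86 CPM in young AL and 2.46, 7.91 and 3.15 CPM in young EOD mice. It had 5.10, 5.12, 5.11 and 2.27 CPM in old AL and 9.72, 4.89, 4.24 and 2.60 CPM in old EOD mice, so that the old AL mice were tight apart from the fourth. Slc4a5, a sodium-bicarbonate cotransporter, ran from 2.60 to 7.76 CPM, and Clic6, a member of the chloride intracellular channel family, ran from 14.8 to 27.1 CPM over the 15 mice. All 3 overlapped between every pair of groups.

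Otx2, a homeodomain factor needed to form and keep the plexus, had 8.32, 5.04, 5.14 and 7.36 CPM in young AL and 8.32, 8.42 and 6.83 CPM in young EOD mice. Its old AL mice had 7.71, 7.87, 7.94 and 4.29 CPM and its old EOD mice 6.45, 9.45, 8.38 and 8.75 CPM. The low mice of Otx2 were the second young AL, the third young AL and the fourth old AL mouse, which is another set than that of Ttr or Kl. Prlr, the prolactin receptor, ran from 13.8 CPM in the third young AL mouse to 33.1 CPM in the first old AL mouse.

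The secreted regulators differed most in level from each other. Enpp2 encodes autotaxin, which makes lysophosphatidic acid and is also made by oligodendrocytes, and it ran only from 521 to 901 CPM over the 15 mice. Sostdc1, a secreted antagonist of BMP and Wnt signalling, had 6.27, 6.69, 3.78 and 4.27 CPM in young AL and 5.54, 4.64 and 4.34 CPM in young EOD mice. In old AL mice it had 8.95, 5.12, 5.67 and 6.30 CPM, and in old EOD mice 8.29, 7.74, 7.55 and 3.66 CPM. Of the old EOD mice 3 were above every young mouse and the fourth was below every one of them.

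Per kilobase of counted transcript the order of the mean levels was Ttr (598 ± 199 CPM per kb, SD, n = 15), Enpp2 (197 ± 33.8), Kl (5.58 ± 1.61), Clic6 (5.54 ± 1.01), Sostdc1 (3.38 ± 0.954), Otx2 (2.16 ± 0.444), Folr1 (2.02 ± 0.837), Aqp1 (1.92 ± 0.806), Prlr (1.38 ± 0.317) and Slc4a5 (0.833 ± 0.276). Ttr was above Enpp2, Enpp2 above Kl, and Clic6 above Sostdc1 in all 15 mice, and Sostdc1 above Otx2 and Prlr above Slc4a5 in 14. Kl was above Clic6 in 10 of 15 mice, Otx2 above Folr1 in 9, Folr1 above Aqp1 in 10 and Aqp1 above Prlr in 11, so these neighbours did not separate beyond their spread.

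Whether ageing changed these transcripts was asked of the old and young mice, within each diet and averaged over both. No gene of the 10 passed an FDR of 0.1 in edgeR's quasi-likelihood test in any of the 3 age comparisons. Over all 15864 genes tested 2.3% were called in the average over diets, 1.09% in AL mice and 0.29% in EOD mice. Averaged over diets, Ttr was higher in old mice by 0.49 ± 0.19 on the log2 scale (SE; 95% interval 0.08 to 0.89, FDR = 0.302). Kl was higher by 0.28 ± 0.21 (−0.15 to 0.71, FDR = 0.645). The interval of Kl thus runs from a slightly lower to a clearly higher level in old mice, and the data do not show that Kl was unaffected by age.

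The other 8 genes ranged from −0.05 for Aqp1 to 0.52 for Folr1 (−0.15 to 1.18, FDR = 0.564) in the same comparison. Sostdc1 stood at 0.41 (0.01 to 0.80, FDR = 0.406), Slc4a5 at 0.33, Enpp2 at 0.21 (−0.01 to 0.42, FDR = 0.441), Prlr at 0.17, Clic6 at 0.13 and Otx2 at 0.08. Thus 9 of the 10 values were above 0, against 48.5% of all genes, and their median was 0.24, against −0.00491 over all genes. Without adjustment edgeR put 2 of the 10 genes under 0.05, Ttr at 0.0214 and Sostdc1 at 0.0448, against 11.7% of all genes. DESeq2 also called 0 of the 10, with 2 under an unadjusted 0.05. When every gene with 1 count or more was kept in the edgeR fit, 3 of the 10, Ttr, Kl and Enpp2, passed an FDR of 0.1 in this comparison, and Ttr did so within each diet. Of the 26269 genes then tested, 2.49% were called averaged over diets, 1.69% in AL mice and 0.381% in EOD mice. The lowest unadjusted edgeR p among the 10 averaged over diets was then 7.68e-17, against 0.0214 in the main fit. The median difference of the 10 was nearly the same, at 0.25 against 0.24. The calls thus came with far smaller p-values at nearly the same differences, and they depend on the filter.

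In AL mice alone, the old-minus-young difference was 0.40 ± 0.26 for Ttr (−0.15 to 0.95) and 0.31 ± 0.28 for Kl (−0.27 to 0.90) on the log2 scale. In EOD mice it was 0.57 ± 0.29 for Ttr (−0.03 to 1.17) and 0.25 ± 0.31 for Kl (−0.39 to 0.89). Values were above 0 for 9 of 10 genes in AL mice (47.6% of all genes) and for 10 of 10 in EOD mice (49.9%), with medians of 0.19 and 0.29. Unadjusted p-values were under 0.05 for 0 of the 10 genes in either diet, against 9.52% of all genes in AL mice and 5.74% in EOD mice. Single mice moved the EOD values: without the second young EOD mouse Ttr stood at 0.99 and Kl at 0.53, and without the third they stood at 0.37 and 0.086. The difference between the 2 age effects was tested as an interaction and was called for 0 of the 10 genes, as for 0.0% of all genes, with 0 under an unadjusted 0.05 against 2.28% of all genes. The interaction was 0.18 for Ttr (−0.63 to 0.98) and −0.07 for Kl (−0.93 to 0.80), intervals that allow sizable differences either way. Interactions were above 0 for 7 of 10 genes, against 51.5% of all genes. The interaction was 0.75 for Aqp1 (−0.43 to 1.92), whose age difference was −0.42 in AL mice and 0.33 in EOD mice. These values of Aqp1 rested on single mice: the interaction was 0.26 without the first old EOD mouse, 0.42 without the first and 1.37 without the second young EOD mouse, and 0.49 without the fourth old AL mouse. Without the first old EOD mouse the EOD age difference of Aqp1 was −0.15, and without the fourth old AL mouse its AL age difference was −0.16. For Kl the interaction ran from −0.23 to 0.23 and for Ttr from −0.022 to 0.59 as each mouse was left out.

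No gene of the 10 had non-overlapping old and young groups in any of these comparisons. The share of all genes that did was 4.56% in AL mice, 9.04% in EOD mice and 0.901% with both diets joined. The age difference in AL mice rested in part on the third young AL library: without it, Ttr stood at 0.18 (−0.31 to 0.66) and Kl at 0.02 (−0.39 to 0.44), and 5 of 10 genes were above 0. Averaged over diets and without that library, Ttr stood at 0.38 (0.03 to 0.72, FDR = 0.350) and Kl at 0.14 (−0.16 to 0.44, FDR = 0.768). In EOD mice, whose spread is estimated jointly with the rest, Ttr then stood at 0.58 (0.09 to 1.06, FDR = 0.508) and Folr1 at 0.72 (0.04 to 1.40, FDR = 0.600).

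**Figure D2:**
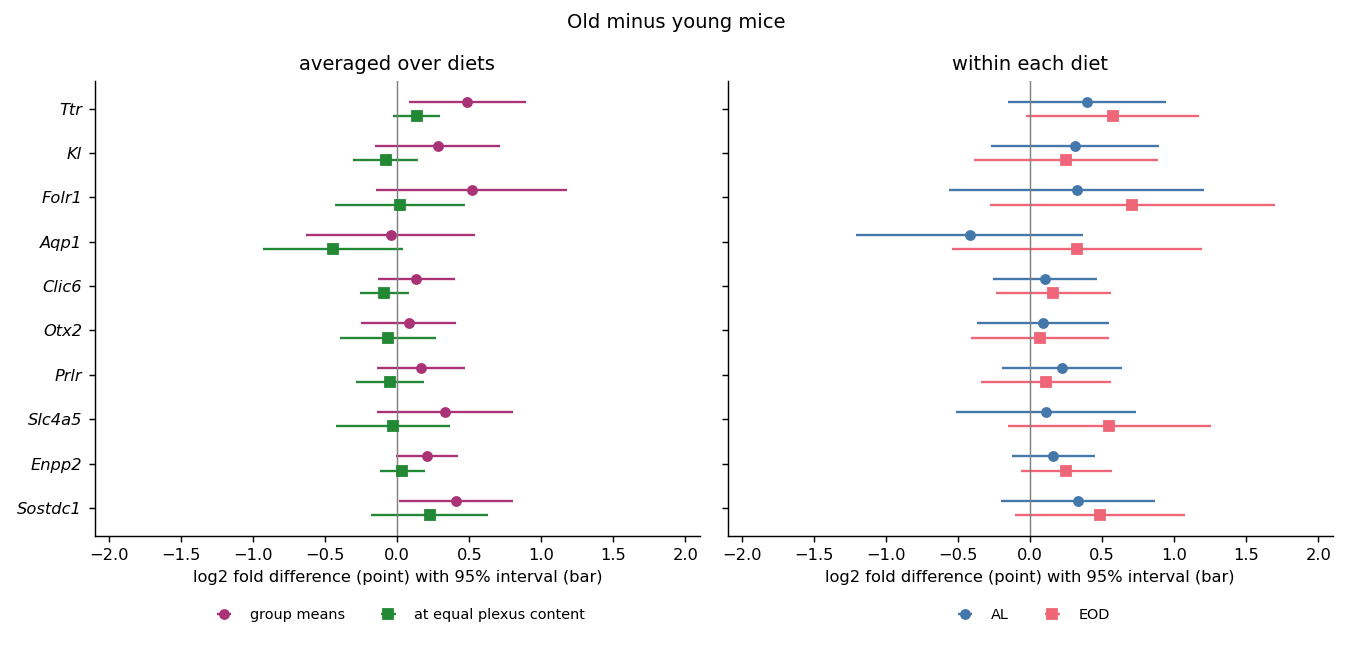
Old-minus-young differences of the 10 genes on the log2 scale with 95% intervals as bars. The left panel averages over diets, from group means (circles) and at equal plexus content (squares), and the right panel gives AL (circles) and EOD (squares) mice, with Ttr at 0.49 and 0.13 and Kl at 0.28 and −0.08 on the left.

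Whether EOD feeding changed the same transcripts was asked in young mice, in old mice and over both ages. edgeR called 0 of the 10 genes in each of these 3 comparisons, as it called 0.0% of all genes in each of them, and DESeq2 called 0 of the 10 as well. In edgeR 0 of the 10 were under an unadjusted 0.05, against 4.14% of all genes at the young age, 2.58% at the old age and 4.51% over both. Kl differed by 0.01 ± 0.31 between young EOD and young AL mice (−0.63 to 0.65) and by −0.06 ± 0.28 between old EOD and old AL mice (−0.64 to 0.52) on the log2 scale. Ttr differed by −0.06 ± 0.29 in young (−0.66 to 0.53) and 0.11 ± 0.26 in old mice (−0.43 to 0.66). These intervals leave room for changes of about the size seen between ages, in either direction.

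The gene with the lowest unadjusted p-value for diet was Otx2, at 0.28 averaged over ages (−0.05 to 0.61, 0.0907 unadjusted, edgeR FDR = 0.983). It was higher in EOD mice by 0.29 in young and 0.27 in old mice, and its values overlapped between the diets at both ages. Values above 0 were found for 3 of 10 genes in young mice (49.2% of all genes), 8 of 10 in old mice (50.8%) and 3 of 10 averaged over ages (50.2%), with medians of −0.09, 0.05 and −0.03. No gene had non-overlapping diet groups, against 4.45% of all genes in young mice, 2.59% in old mice and 0.0567% with both ages joined. Without the third young AL library, Kl stood at −0.29 (−0.74 to 0.17) and Ttr at −0.29 (−0.81 to 0.22) in young mice, and 1 of 10 genes was above 0.

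**Figure D3:**
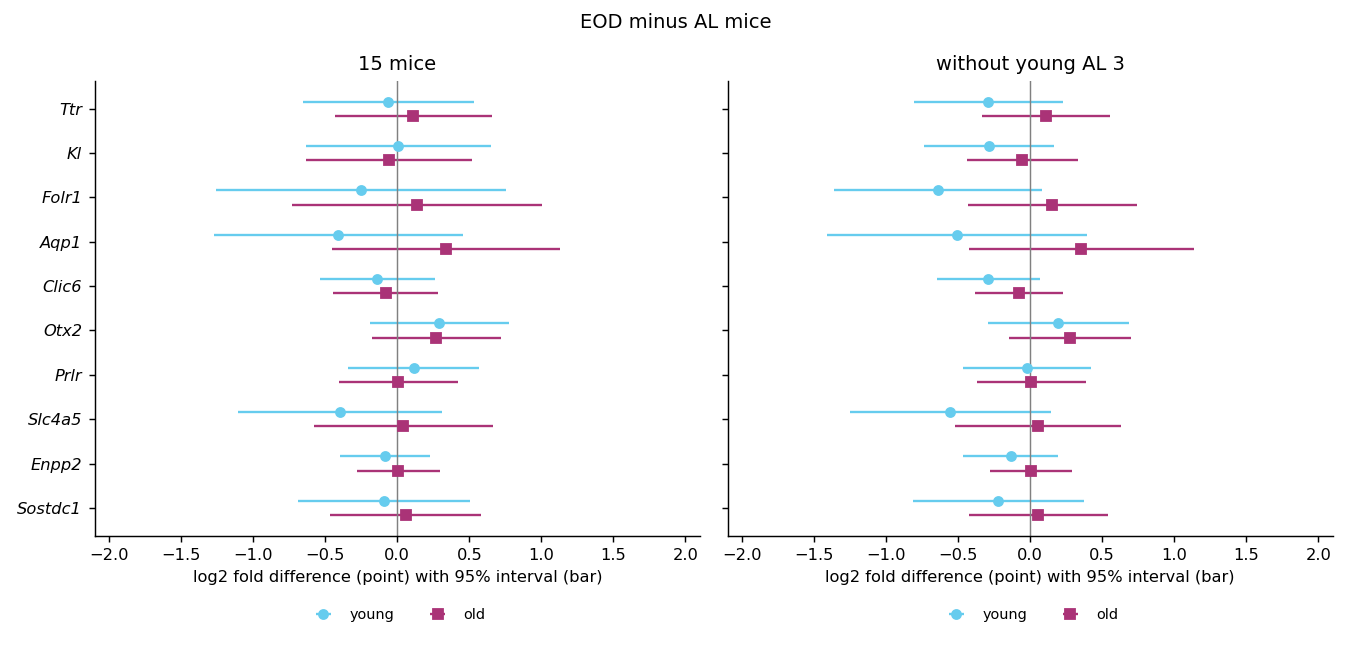
EOD-minus-AL differences of the 10 genes on the log2 scale with 95% intervals as bars, for young (circles) and old (squares) mice. The left panel uses all 15 mice and the right panel leaves out the third young AL mouse, which moves Kl in young mice from 0.01 to −0.29, and every interval includes 0.

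Mice of the same group differed more in these genes than in most others. The within-group SD on the log2 scale was 0.819 for Folr1, 0.634 for Aqp1, 0.559 for Kl, 0.518 for Ttr, 0.480 for Slc4a5 and 0.395 for Sostdc1, against a median of 0.197 over all genes tested. It was 0.342 for Prlr, 0.319 for Otx2, 0.294 for Clic6 and 0.252 for Enpp2. Counting error adds more to this spread in genes of low count.

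The differences ran in parallel across genes. Over 15 mice, Kl followed Ttr with a Pearson r of 0.929 and a Spearman rho of 0.925 on log2 values. The permutation p was 1e-05, the smallest that the 100000 permutations can give, for Pearson's r, and 2e-05 for Spearman's rho. Of the 15862 other genes tested, 0 had an r with Ttr as high as that of Kl, also without the third young AL mouse. Adjusted over all 15863 genes, the permutation p of Kl was 0.0529 for r and 0.106 for rho, and no gene passed 0.05 at this number of permutations.

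Folr1 (r = 0.913), Clic6 (0.876), Enpp2 (0.837), Slc4a5 (0.768) and Prlr (0.766) came next, Sostdc1 (0.613) and Aqp1 (0.590) were weaker, and Otx2 was the weakest (r = 0.426, rho = 0.257). Of the 9 relations computed, 8 had an unadjusted permutation p under 0.05, against 15.7% of all genes, and Otx2 had p = 0.113. After adjustment over all genes the p-values were 0.0529 for Folr1, 0.0793 for Clic6, 0.148 for Enpp2, 0.176 for Prlr and Slc4a5, 0.242 for Sostdc1, 0.253 for Aqp1 and 0.416 for Otx2. Spearman's rho was 0.904 for Folr1, 0.868 for Enpp2, 0.864 for Clic6, 0.839 for Slc4a5, 0.721 for Aqp1, 0.714 for Prlr and 0.579 for Sostdc1, with unadjusted permutation p-values from 2e-05 to 0.0264. All 45 pairs among the 10 genes had a positive r, with a median of 0.667. Without the third young AL mouse 44 of 45 did, with a median of 0.689 and a lowest value of −0.147 (Otx2 and Sostdc1). The values of each mouse share 1 library and its depth.

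**Figure D4:**
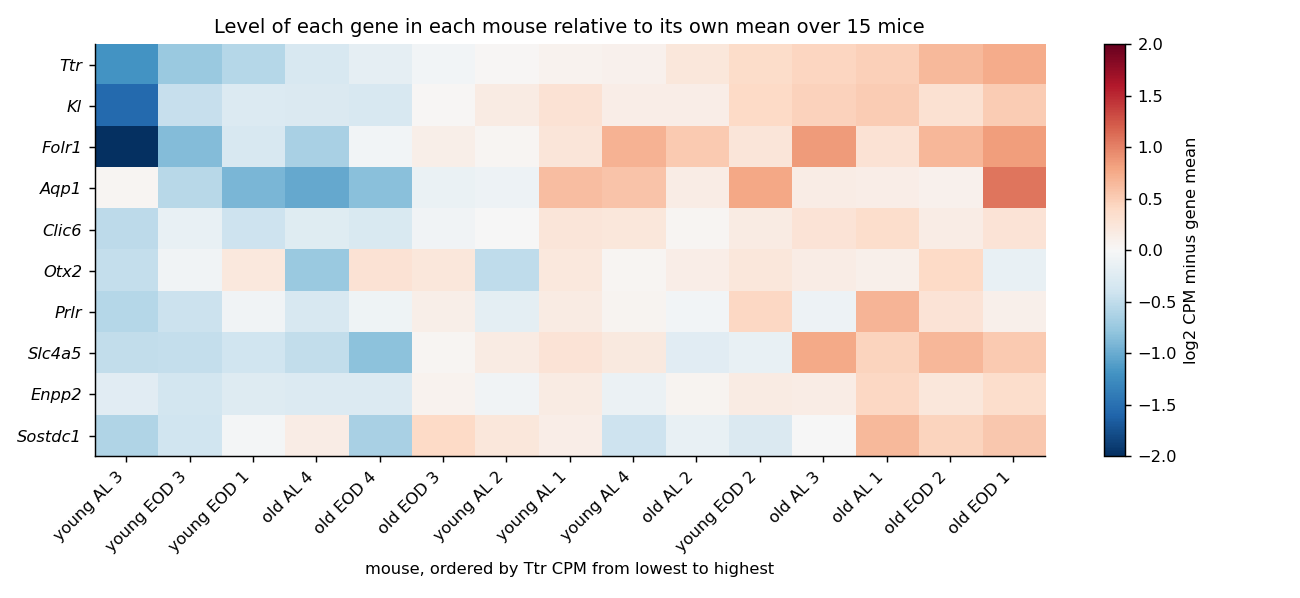
Log2 CPM of each gene minus its own mean over 15 mice, as a colour from −2 (blue) to 2 (red), with mice ordered from the lowest to the highest Ttr; Folr1 in the first mouse lies beyond the scale. The 5 mice on the left are low in most genes and include mice of all 4 groups.

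The order of the mice was not that of the groups. The 5 mice with the least Ttr were the third young AL, the third and first young EOD, the fourth old AL and the fourth old EOD mouse. The 2 mice with the most Ttr were both old EOD mice. The third young AL mouse was among the lowest 3 in 8 of the 10 genes, the fourth old AL mouse and the fourth old EOD mouse in 6 each, and the first old EOD mouse was among the highest 3 in 8.

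For most genes the size of r with Ttr did not rest on the third young AL mouse. Without it, r with Ttr was 0.922 for Kl, 0.899 for Enpp2, 0.883 for Folr1, 0.823 for Clic6, 0.784 for Slc4a5, 0.762 for Aqp1, 0.674 for Prlr, 0.509 for Sostdc1 and 0.247 for Otx2. As deviations from group means r was 0.949 for Kl, 0.927 for Clic6 and 0.898 for Folr1, the 3 genes of the list that then had an adjusted permutation p under 0.05 over all genes, with 0.0264 for each. The permutations ignored that these deviations are tied within each group, so these p-values can be too small. Without the 2 mice farthest from the Ttr median, the third young AL and the third young EOD mouse, r was 0.894 for Kl and between 0.232 (Otx2) and 0.874 (Enpp2) for the others. Unadjusted permutation p-values were under 0.05 for 7 of the 9 genes in each of these 3 settings, with Sostdc1 and Otx2 above it. The share of all genes under 0.05 was 4.24% without the third young AL mouse, 17.5% as deviations from group means and 2.93% without the 2 mice. Adjusted over all genes, 0 of the 9 relations passed 0.05 in either setting with mice left out. The lowest adjusted permutation p was 0.159 in both, for Kl and, without the third young AL mouse alone, also for Enpp2. The number of permutations limits how small an adjusted p can be. Without the 2 mice, Kl had the smallest unadjusted p that the permutations can give and still did not pass. The adjusted values in the settings with mice left out thus cannot decide whether these relations hold.

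**Figure D5:**
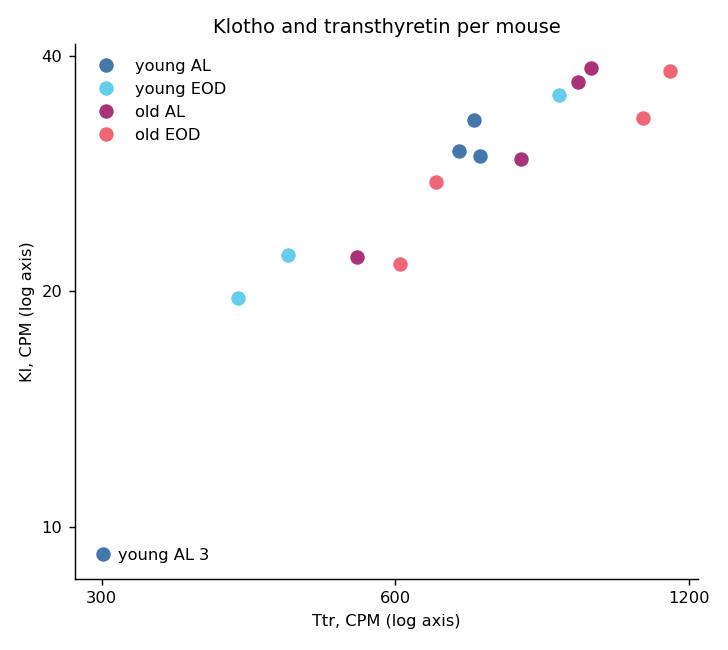
Kl against Ttr in CPM, both on log axes, with 1 point per mouse coloured by group. The 15 mice lie along 1 rising line (r = 0.929), the third young AL mouse at its lower end (301 and 9.22 CPM), and points of all 4 groups are mixed along it.

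Relative to Ttr, Kl was much steadier than on its own. Kl stood at 4.01 ± 0.669 per 100 Ttr in young AL (SD, n = 4), 4.52 ± 0.426 in young EOD (n = 3), 3.94 ± 0.186 in old AL (n = 4) and 3.55 ± 0.467 in old EOD mice (n = 4), in CPM. Over all mice the ratio ran from 3.06 to 4.79. Its lowest values were in the third young AL mouse and the second old EOD mouse (3.10).

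Age comparisons were repeated at equal plexus content, measured in each mouse as the mean log2 CPM of 12 other plexus genes (Kcnj13, F5, Wfdc2, Cldn2, Col8a2, Steap1, Slc4a2, Tmem72, Mfrp, Calml4, Krt18 and Kcne2). This content was 1.79 ± 0.589 in young AL (SD, n = 4), 1.77 ± 0.464 in young EOD (n = 3), 2.18 ± 0.384 in old AL (n = 4) and 2.13 ± 0.413 in old EOD mice (n = 4). Its mean was thus higher in the old groups, the mice of old and young groups overlapped, and the difference in content was not tested. Of the 12 genes, Krt18 was itself called with age averaged over diets (1.10, edgeR FDR = 0.0935). Wfdc2, Krt18 and Steap1 were near the floor, at means of 0.826, 1.36 and 1.46 CPM. With content in the edgeR model, the age difference averaged over diets was 0.13 for Ttr and −0.08 for Kl (−0.30 to 0.14, FDR = 0.884). It was −0.45 for Aqp1 (−0.93 to 0.04, FDR = 0.575) and 0.22 for Sostdc1 (−0.18 to 0.63), and the other 6 genes lay between −0.09 and 0.03.

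At equal content 4 of 10 genes were above 0, their median was −0.04, and 0 were called. The interval of Kl was narrower with this term than without it. Aqp1 in AL mice stood at −0.85 (−1.48 to −0.22) with an unadjusted edgeR p of 0.0102 and an FDR of 0.408. In whole-brain RNA, fewer plexus cells and less RNA per cell cannot be told apart, and a change shared by all plexus genes would be removed by this term together with differences in dissection.

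Sequencing lane, read from the file headers, held mice of both ages in each of 3 lanes. Old mice had the higher mean log2 CPM for 10 of 10 genes in lane 1 (5 mice) and in lane 2 (6 mice), but for 1 of 10 in lane 3 (4 mice), which held 1 young mouse. With lane in the edgeR model, Ttr stood at 0.54 (0.14 to 0.94, FDR = 0.298) and Kl at 0.35 (−0.09 to 0.78, FDR = 0.636) between ages, 10 of 10 genes were above 0 and 0 were called. As deviations from lane means, r with Ttr was 0.934 for Kl, and in the 6 mice of lane 2 alone it was 0.950 (exact permutation p = 0.00972).

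Other genes of the plexus epithelium moved with the 10. Of 27 tested (30 listed), 20 had an r with Ttr above 0.5, against 9.55% of all genes, and 17 without the third young AL mouse, against 3.28%. These 27 include all the genes of the plexus content measure except Slc4a2, so the list and that measure are not independent. Between ages averaged over diets, 2 of the 27 rose and 0 fell, against 2.3% of all genes called. The median of the 27 was 0.24 on the log2 scale, against −0.00491 over all genes. Cab39l, a scaffold of the LKB1 complex, rose by 0.29 (FDR = 0.0192), from 55.3 ± 3.96 and 53.9 ± 0.541 CPM in young AL and EOD mice to 64.5 ± 7.03 and 68.7 ± 3.54 CPM in old AL and EOD mice. Krt18, an epithelial keratin, rose by 1.10 (FDR = 0.0935), from 0.849 and 0.789 to 1.71 and 1.96 CPM.

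Among 11 tested genes of the Klotho family, FGF receptors and sheddases, 1 rose with age averaged over diets and 0 fell. The median was 0.06, and 2.3% of all genes were called. Fgfr2, which encodes an FGF receptor, rose by 0.33 in AL (FDR = 0.0713) and by 0.45 in EOD mice (FDR = 0.0312). Its levels were 63.4 ± 4.79 CPM in young AL, 61.8 ± 2.50 in young EOD, 79.8 ± 6.10 in old AL and 84.6 ± 6.79 in old EOD mice. The sheddase gene Adam17 had an r of 0.812 with Ttr (0.714 without the third young AL mouse), while the sheddase genes Adam10 and Bace1 had 0.506 and 0.0312. None of these 3 was called, and Adam17 was picked after its value was seen.

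For the carriers and receptors that work with Ttr, 1 of 14 genes of thyroid hormone and retinol transport changed with age averaged over diets. This was Hr, a thyroid hormone-responsive corepressor, which fell by 0.35 (FDR = 0.0715), and the list median was −0.02. Over all genes 2.3% were called in this comparison, which is also that of the other lists named next. In prolactin and growth hormone signalling, 1 of 10 rose, Stat3, which relays cytokine receptor signals (0.22, FDR = 0.0692), and the median was 0.18. In AL mice alone 2 of these 10 rose, Gh (edgeR FDR = 0.0188) and Prl (edgeR FDR = 0.0779), against 1.09% of all genes called. The fourth old AL mouse held 888 CPM of Gh, against at most 14.9 CPM elsewhere, and 72.5 CPM of Prl, against at most 1.33 CPM elsewhere. Averaged over diets, 0 of 9 were called in folate transport and use, with a median of 0.06. In lysophosphatidic acid receptors and phosphatases it was 0 of 7, with a median of 0.05. In that list Lpar1, a receptor of the product of autotaxin, had an r with Ttr of 0.820 (0.716 without the third young AL mouse) and was picked after this value was seen, while the list had a median r of 0.0511. In BMP and Wnt co-receptor genes 0 of 11 were called, with a median of −0.03.

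Of 20 relatives in bicarbonate and water transport 2 rose and 0 fell with age averaged over diets, with a median of −0.04. Over all genes 2.3% were called in that comparison. Car2, carbonic anhydrase 2, which is also made by oligodendrocytes, rose by 0.40 (FDR = 1.38e-05), from 211 ± 9.06 and 223 ± 6.67 CPM in young AL and EOD to 265 ± 14.6 and 308 ± 10.8 CPM in old AL and EOD mice. Slc12a2, the NKCC1 cotransporter of the apical plexus membrane, rose by 0.22 (FDR = 0.0745). Its mean was 155 CPM and its r with Ttr 0.460 (0.394 without the third young AL mouse). The cells in which Slc12a2 rose cannot be told from whole-brain RNA. In AL mice alone Car4 fell by 0.49 (FDR = 0.0494), while Car12 and Car14, carbonic anhydrases of the cell surface, were not called and had an r with Ttr of 0.668 and 0.753, and were picked after these values were seen. None of these lists had a gene called by diet, as for 0.0% of all genes.

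Markers of other cell types were summed in each mouse and set against Ttr, in 9 lists, and against Enpp2 for oligodendrocytes. None of the 10 relations had a permutation p under 0.05 after adjustment over these 10, a smaller family than the all-gene adjustment used for single genes. Ependymal markers (11 of 12 passed the filter) had r = 0.545 and rho = 0.411 (adjusted permutation p = 0.121 and 0.424). Without the third young AL mouse this r was 0.181, and without the 2 farthest mice 0.0675. Their sum ran from 29.0 to 46.9 CPM in young AL, 43.6 to 52.1 in young EOD, 44.6 to 58.8 in old AL and 46.5 to 60.9 in old EOD mice. Of the ependymal genes 11 of 11 were higher in old mice averaged over diets, against 48.5% of all genes. Of these 11, 0 were called, against 2.3% of all genes, and their part in the results for the plexus genes was not tested.

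Meningeal and stromal markers (12 of 12 passed) had r = 0.446 with Ttr, red blood cell markers 0.592, neuron markers −0.606, and endothelial markers 0.334, with adjusted permutation p-values between 0.113 and 0.374. Spearman's rho was 0.382, 0.329, −0.464 and 0.375 in that order, with adjusted permutation p-values of 0.424 to 0.463. Without the 2 farthest mice Pearson's r was 0.519, 0.263, −0.374 and 0.178. Enpp2 and the oligodendrocyte markers had r = 0.219 and rho = 0.0679 (adjusted permutation p = 0.479 and 0.845), and 3 genes of that list of 12, Ermn, Aspa and Mbp, rose with age averaged over diets and in AL mice, with 0 called in EOD mice. Over all genes 2.3% were called averaged over diets, 1.09% in AL mice and 0.29% in EOD mice. The list as a whole did not rise in both diets. Of its 12 genes, 8 were above 0 averaged over diets (median 0.03), 10 in AL mice (0.19) and 4 in EOD mice (−0.06). The shares of all genes above 0 were 48.5%, 47.6% and 49.9% in that order. The fourth old AL mouse, low in Aqp1 and Otx2, held pituitary transcripts: Gh was 888 CPM there and at most 14.9 CPM elsewhere, and Prl was 72.5 CPM there and at most 1.33 elsewhere. The part of this tissue in the values of that mouse was not tested, and without it and the third young AL mouse the age difference averaged over diets was 0.06 for Aqp1.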

How the data were processed

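Whole-brain RNA of 15 mice was sequenced. After trimming, the authors ran STAR against Ensembl GRCm38, then assigned reverse-stranded reads to genes of release 79 (featureCounts 1.5.0-p1). The deposited values are raw counts per gene, without normalisation. Everything after the counts was computed here.

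Genes passing edgeR's filterByExpr (15864) were fitted as 4 group means (edgeR 4.0.16, R 4.3.3, TMM, quasi-likelihood test, Benjamini-Hochberg over all of them, FDR under 0.1). Standard errors are the log2 difference divided by the square root of F, with 95% intervals from the model's degrees of freedom. Correlations used log2 CPM (prior count 2) and 100000 permutations, or all permutations for 6 mice. For single genes the p-values were adjusted over all genes tested, in place of the 9 relations first planned. Marker sums entered as log2 of the summed CPM plus 1, and their p-values were adjusted over the 10 marker relations alone. Symbols came from Ensembl identifiers, and 42462 of 43629 genes received one.

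The 10 genes and the lists were chosen with earlier results of these data known. Genes named outside the 10 are list members that passed FDR 0.1 in a comparison, otherwise up to 4 of each list by mean CPM, and the 10 other genes nearest to the mean of the 10 and 5 nearest to Kl by r. Adam17, Car12 and Car14 fall outside this rule and were chosen after their values were seen. Of the marker lists, Itm2a, which fell, and Gfap, Cx3cr1 and Csf1r, which rose, were also called with age averaged over diets and are not described above. Alternatives were RLE factors, other filters, DESeq2 1.42.0, a replicate block, lane and plexus content terms, and leaving out mice. Chosen after seeing the data were leaving out 2 mice, content on 14 mice, lane deviations, marker sums and the adjustment over all genes. At these depths genes with few counts have wide intervals.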

Additional observations from a re-analysis of the deposited data

Results flagged for a closer look

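In groups of 4 mice, the lowest or highest mouse was checked against the rest by its gap divided by the whole range of the group (Dixon's ratio, against its 95% critical value). Of 30 such groups, 3 for each of the 10 genes, 5 passed, and chance alone flags about 1 in 20. In young AL, the third mouse stood below the others for Ttr (ratio 0.917), at 301 CPM against 697 to 733, and for Kl (0.86), at 9.22 CPM against 29.8 to 33.1. In old AL, the fourth mouse stood below the others for Aqp1 (0.993), at 2.27 CPM against 5.10 to 5.12, and for Otx2 (0.936), at 4.29 CPM against 7.71 to 7.94. In old EOD, the fourth mouse stood below the others for Sostdc1 (0.84), at 3.66 CPM against 7.55 to 8.29. The young EOD group of 3 mice was not checked.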

How the results depend on the processing

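The count of called genes among the 10 was 0 under RLE factors, DESeq2, a minimum of 10 counts in every mouse, the lane term, the content term and each mouse left out (0 to 0 in all 7 comparisons). Among these settings it changed only with the filter off (any gene of 1 count or more), to 1 in AL mice (Ttr), 1 in EOD mice (Ttr) and 3 averaged over diets (Ttr, Kl and Enpp2). Over all genes that setting called 653 genes for age over both diets, 444 under AL and 100 under EOD feeding, against 365, 173 and 46, and 26, 27, 65 and 26 genes for diet in young, in old, averaged and for the interaction, against 0. In that setting the lowest edgeR FDR over all genes was 1.62e-226 for diet in old mice, against 0.984 in the main fit. The cause was not tested. Other counts beyond 1.5 times were, averaged over diets, 237 with lane, 231 with content (153 without the fourth old AL mouse), 222 without the first and 216 without the second young EOD mouse. In AL mice they were 102 without the third old AL mouse and 79 with content and without the fourth. In EOD mice they were 70 by DESeq2, 76 without the third young AL mouse, 79 without it and the fourth old AL mouse, 24 without the second old EOD mouse, and 19, 21 and 20 without each young EOD mouse. For diet they were 1 by DESeq2 in young mice, 2 with lane in old mice, and 2 with content and without the third young AL mouse in old mice and averaged over ages.

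Signs of uncalled differences turned as follows on the log2 scale. With the content term, age averaged over diets turned to −0.0805 for Kl, −0.0904 for Clic6, −0.0630 for Otx2, −0.0517 for Prlr and −0.0269 for Slc4a5, and Kl turned to −0.00956 in AL and −0.15 in EOD mice. Aqp1 turned to 0.0398 with lane and to 0.0588 without the third young AL and the fourth old AL mice, a setting in which the diet difference of Kl in young mice was −0.29 and that of Ttr in old mice −0.0386. With single mice left out, ranges were −0.28 to 0.27 for Aqp1 between ages, −0.29 to 0.17 for Kl and −0.48 to 0.13 for Ttr between diets in young mice, and −0.21 to 0.0720 for Kl and −0.0484 to 0.25 for Ttr between diets in old mice. Kl between ages ran from 0.14 to 0.42 and Ttr from 0.38 to 0.69.

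Same-numbered mice of different groups did not deviate together: the mean correlation of 21 pairs was −0.03 (−0.11 to 0.11). With the replicate number as a block, 0 of the 10 genes were called, Ttr between ages was 0.54 (FDR = 0.177), Kl between diets in young mice was −0.0348, and 155, 35 and 250 genes were called in all. Depth limits Folr1, Slc4a5, Aqp1, Sostdc1 and Otx2 most, at 9 to 116 counts per mouse.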

Other observations

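Outside the 10, the genes nearest to their mean pattern over 15 mice, as deviations from group means among all genes tested, were Kcne2 (r = 0.930), a potassium channel subunit of the plexus epithelium, Abca4 (0.924), Tmem72 (0.916), Tubb6 (0.898), Lpar1 (0.895), Anpep (0.887), Serinc2 (0.887), Mest (0.885), Mfrp (0.884) and Phf8 (0.883). Without the third young AL mouse these were between 0.831 and 0.902. Of these, Kcne2, Tmem72 and Mfrp were on the list of other plexus genes. The genes nearest to Kl, again outside the 10, were Kif23 (0.955), Cldn2 (0.941), a claudin of the plexus tight junction, Ifitm3 (0.929), Lbp (0.927) and Tubb6 (0.923), and these are descriptions without a test.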
